A study of Mus musculus with 15 samples.

Results

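The collagen chain genes are the protein-coding mouse genes whose symbol is Col, a number, the letter a and a number, such as Col1a1. The rule found 44 genes among the 49315 Ensembl gene identifiers of the deposited tables, and every symbol of this form in the GENCODE M21 annotation (GRCm38, the build also called mm10) was in the tables. There were 11 fibrillar chains, 6 basement membrane chains, all of type IV, and 27 chains of other classes. RNA came from 15 libraries of primary myoblasts, the muscle precursor cells grown out of muscle tissue, of wild-type (WT) C57BL/6J mice. All cells received small interfering RNA with a lipid reagent and then differentiated for 1 day. The groups were siLmod1, siSirt1 and siCtrl, with 5 libraries each. The study states 5 primary lines, and the labels number the libraries of each group 1, 2, 3, 4 and 7, so that a number is read here as 1 line, which the labels do not say in words. Leiomodin 1, the Lmod1 product, starts actin filaments, and sirtuin 1, the Sirt1 product, removes acetyl groups from proteins. Age, sex and the number of animals behind a line were not given in the sources used here, no untransfected cells were used here, and each group had 1 library per line.

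Collagens are secreted or membrane-bound proteins built as triple helices of 3 alpha chains, which may be copies of 1 gene product or the products of different genes. Fibrillar chains such as those of types I, III and V pack into the fibrils of connective tissue. Type IV chains form the sheet-like network of the basement membrane that wraps every muscle fibre and its satellite cells, and type VI chains form beaded filaments that lie next to it. Most collagen of skeletal muscle is made by its fibroblasts, while cultured myoblasts and myotubes make basement membrane chains and some fibrillar chains.

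Of the 44 chains, 26 were expressed, taken as a mean TPM, the deposited level scaled for gene length and library size, of 1 or more in at least 1 group. These were 9 of 11 fibrillar, 3 of 6 type IV and 14 of 27 other chains. The transcripts of all 44 chains summed to 621 ± 151 TPM in siLmod1, 1115 ± 645 in siSirt1 and 1025 ± 273 in siCtrl (SD, n = 5 each). Line by line, in the order 1, 2, 3, 4 and 7 that is used for every list of library values, the sums were 671, 507, 537, 526 and 866 TPM in siLmod1, 827, 459, 834, 1324 and 2129.6 in siSirt1 and 1082, 569, 1034, 1148 and 1293 in siCtrl. The siLmod1 sum was below the siCtrl sum of its own line in 5 of 5 lines. The siSirt1 sum was below siCtrl in lines 1, 2 and 3 and above it in lines 4 and 7. In bulk RNA, fewer cells of a type and less RNA per cell cannot be told apart.

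**Figure D1:**
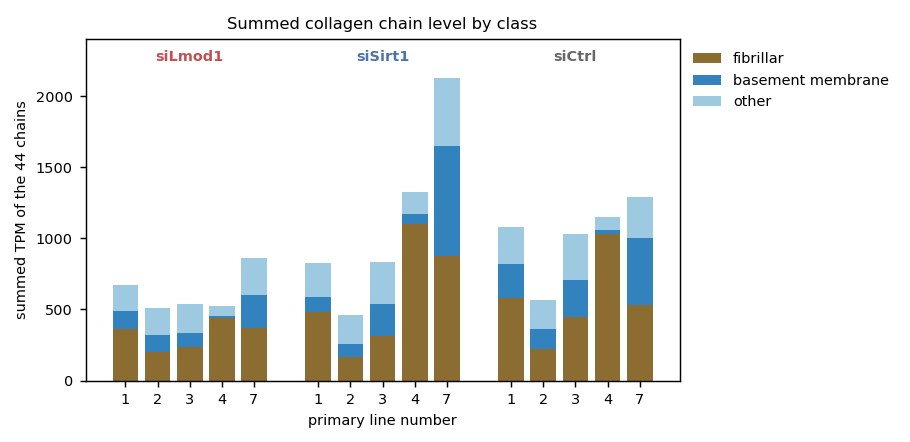
Summed TPM of the 44 collagen chains in each library (y axis), stacked by fibrillar, type IV basement membrane and other chains, for the 5 primary lines (x axis) of siLmod1, siSirt1 and siCtrl. Each bar is 1 library, so there is no error bar. The siSirt1 library of line 7 has the highest sum, 2130 TPM, and fibrillar chains make up 83.7%, 83.4% and 90.0% of the sum in the 3 libraries of line 4.

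The makeup of the sum differed between primary lines. In line 4, fibrillar chains took 83.7% of the summed TPM in siLmod1, 83.4% in siSirt1 and 90.0% in siCtrl, and type IV chains took 2.77%, 5.12% and 2.04%. In the other 4 lines the fibrillar share ran from 40.3% to 54.5% in siLmod1, from 35.6% to 58.4% in siSirt1 and from 38.5% to 54.0% in siCtrl. Over the 26 expressed chains, the median range over the 5 siCtrl lines was 3.49 in log2 CPM (reads scaled to the library total, not to length). Line 4 had the lowest of the 5 values in all 3 groups for 10 chains, among them Col4a1, Col4a2, Col18a1, Col6a1 and Col6a2. It had the highest in all 3 groups for 6 chains, Col5a2, Col5a1, Col16a1, Col10a1, Col17a1 and Col27a1. Of these, Col10a1, Col17a1 and Col27a1 did not reach the threshold of expression without line 4, so that their inclusion here depended on it.

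Before the comparisons, the libraries and the labelled cell type were checked. The libraries held 21004908 to 33601761 counted reads. Lmod1 lay between 1.39 and 5.28 CPM in siLmod1 and between 5.77 and 41.0 CPM in siCtrl, and was lower with siLmod1 in 5 of 5 lines. Sirt1 lay between 3.37 and 11.4 CPM in siSirt1 and between 16.5 and 34.2 CPM in siCtrl, and was lower with siSirt1 in 5 of 5 lines. With the line as a block (edgeR), Lmod1 changed by -3.07 ± 0.14 SE (adjusted p = 2.8e-06) in siLmod1 against siCtrl and Sirt1 by -2.18 ± 0.195 SE (adjusted p = 0.00272) in siSirt1 against siCtrl, on the log2 scale. With the group alone neither passed, at adjusted p = 0.0685 and 0.0735. Each target also moved with the other siRNA in the blocked fit, in 5 of 5 lines: Lmod1 fell by 0.96 ± 0.19 SE (adjusted p = 0.0271) in siSirt1 against siCtrl, and Sirt1 rose by 0.54 ± 0.06 SE (adjusted p = 0.00014) in siLmod1 against siCtrl. All 6 myoblast markers (Myod1, Myf5, Pax7, Des, Cdh15 and Myog) had a mean above 1 TPM in every group, with sums of 5854 to 9556 TPM in siLmod1, 5382 to 8824 in siSirt1 and 6648 to 10865 in siCtrl. Within lines this sum was lower with siLmod1 than with siCtrl in 5 of 5 lines. With siSirt1 it was lower than with siCtrl in lines 1, 4 and 7. Its members did not move alike. Myog averaged 3096 TPM in siLmod1 and 4281 in siCtrl, Cdh15 503 and 599, Myf5 100 and 114, and Pax7 19.4 and 32.9. Myod1 and Des went the other way, with means of 1379 and 2509 TPM in siLmod1 and 1305 and 2373 in siCtrl. The 8 fibroblast markers summed to 3.02 to 4.71 TPM in siLmod1, 2.33 to 7.55 in siSirt1 and 3.24 to 5.96 in siCtrl, and Pdgfra, their defining member, was at most 0.728 TPM. The defining markers of smooth muscle (Myh11), endothelium (Pecam1), Schwann cells (Sox10) and macrophages (Ptprc) were at most 0.726, 0.439, 0.271 and 0.0111 TPM. The endothelial gene Tek was at 58.0, 29.7 and 62.3 TPM in the siLmod1, siSirt1 and siCtrl libraries of line 4 and at most 0.712 TPM in the other lines. The sum of the smooth muscle and pericyte list, 8 genes in all, was almost wholly Acta2, an actin that differentiating myoblasts also express. It was 3710 to 9799 TPM in siLmod1, 2483 to 7830 in siSirt1 and 4657 to 10585 in siCtrl. Line 4 had the lowest sum in each group. In each group 5 of the 8 genes had a mean of 1 TPM or more. Besides Acta2 these were Notch3, Mcam, Abcc9 and Rgs5. Their means were 18.3, 18.7, 5.66 and 1.26 TPM in siLmod1 and 50.2, 23.9, 6.03 and 1.41 in siSirt1. In siCtrl they were 38.5, 33.1, 12.2 and 2.25 TPM. On the first principal component of all genes, the 3 libraries of line 4 stood at 97.6 to 98.4 and the other 12 at or below 2.1, and the siSirt1 library of line 7 was highest on the second, at 86.1. The part of these differences in the collagen levels was not tested.

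**Figure D2:**
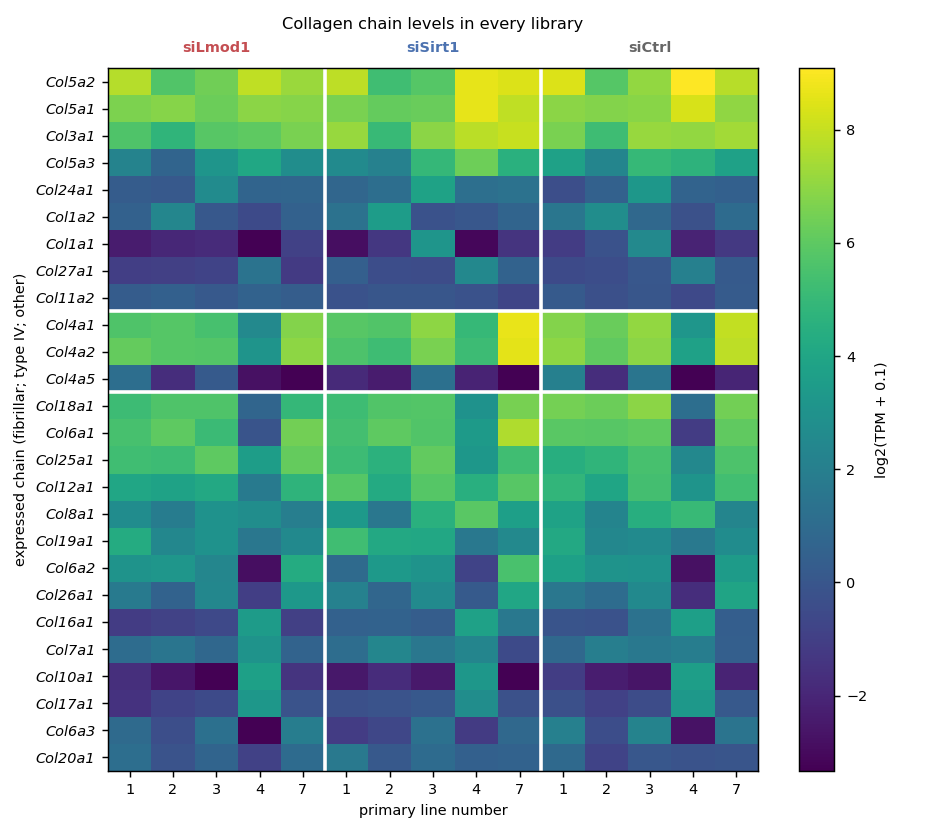
Level of the 26 expressed chains (rows, grouped as fibrillar, type IV and other, each ordered by siCtrl mean) in the 15 libraries (columns, by primary line within siLmod1, siSirt1 and siCtrl), as log2 of TPM plus 0.1. Col5a2, Col5a1 and Col3a1 are bright in every library, Col1a1 is dark in most, and the columns of line 4 are darker than the others of their group for Col4a1, Col4a2, Col6a1 and Col18a1.

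Type V collagen, a minor partner of type I and III fibrils that starts fibrils and limits their width, led the fibrillar class. Col5a2 (chromosome 1, 45374321 to 45503282, minus strand, coordinates here and below in GRCm38 from GENCODE M21) measured 207, 53.1, 83.6, 234 and 147 TPM in siLmod1, 233, 38.97, 55.4, 392 and 345 in siSirt1 and 347, 56.4, 136, 542 and 212 in siCtrl. Its partner Col5a1 (chromosome 2, 27886425 to 28039514, plus strand) measured 97.9, 114, 77.2, 119.9 and 112 TPM in siLmod1, 95.9, 71.3, 76.1, 397 and 237 in siSirt1 and 122, 111, 118, 326 and 132 in siCtrl. Line 4 was highest for both genes, and the groups overlapped. The ratio of Col5a2 to Col5a1, in TPM, was highest in line 1 and lowest in line 2 in each group. It was 2.12, 2.43 and 2.83 in the siLmod1, siSirt1 and siCtrl libraries of line 1. In those of line 2 it was 0.465, 0.546 and 0.510. It also differed within lines, at 1.08, 0.728 and 1.16 in line 3 and 1.95, 0.987 and 1.66 in line 4. In line 7 it was 1.31, 1.46 and 1.61.

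Col3a1 (chromosome 1, 45311538 to 45349706, plus strand) encodes the type III chain, a homotrimer of pliable tissues and of the endomysium around muscle fibres. It lies tail to tail with Col5a2, 24614 bases apart. Col3a1 measured 51.2, 27.3, 57.8, 63.5 and 95.8 TPM in siLmod1, 142, 33.1, 123, 225 and 261 in siSirt1 and 94.8, 36.9, 146, 133 and 165 in siCtrl. Each siLmod1 library was below both other libraries of its line, while the 3 ranges overlapped and line 2 was low throughout. Col5a3 (chromosome 9, 20770050 to 20815067, minus strand), a type V chain of more restricted expression that is found in muscle, measured 4.604, 1.48, 8.73, 16.7 and 6.65 TPM in siLmod1, 6.02, 4.28, 30.1, 80.6 and 23.1 in siSirt1 and 13.5, 4.87, 31.3, 25.4 and 13.8 in siCtrl. It too was lowest with siLmod1 in every line.

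Type I collagen, the main fibril of most connective tissue, was scarce. Col1a1 (chromosome 11, 94936224 to 94953042, plus strand) had 0.0896, 0.163, 0.186, 0 and 0.432 TPM in siLmod1, 0.0361, 0.309, 8.87, 0.0178 and 0.2602 in siSirt1 and 0.362, 0.7803, 5.53, 0.138 and 0.319 in siCtrl. Outside line 3 no library reached 1 TPM, and the siLmod1 values rest on 6, 10, 12, 0 and 24 reads. The count of 0 in siLmod1 line 4 allows up to 0.104 CPM, taking a floor of 3 counts, which covers counting error only. Its partner Col1a2 (chromosome 6, 4504814 to 4541544, plus strand) had 1.36, 5.04, 0.966, 0.591 and 1.36 TPM in siLmod1, 2.45, 11.4, 0.786, 0.929 and 1.499 in siSirt1 and 2.87, 6.74, 1.74, 0.753 and 1.92 in siCtrl, highest in line 2 in each group. Col1a2 exceeded Col1a1 in TPM in every library except those of siSirt1 and siCtrl line 3, although the type I trimer holds more alpha 1 than alpha 2.

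The remaining fibrillar chains were near the threshold in most libraries. Col24a1 (chromosome 3, 145292472 to 145552011, plus strand), a fibrillar chain with an interrupted helix known mainly from bone, measured 1.12, 1.01, 6.27, 1.52 and 1.55 TPM in siLmod1, 1.63, 2.13, 14.1, 2.23 and 2.46 in siSirt1 and 0.687, 1.36, 9.39, 1.44 and 1.29 in siCtrl, with line 3 highest in each group. Col27a1 (chromosome 4, 63214004 to 63334991, plus strand), a related chain known from cartilage, measured 0.391, 0.403, 0.469, 2.58 and 0.327 TPM in siLmod1, 1.26, 0.671, 0.634, 5.47 and 1.39 in siSirt1 and 0.585, 0.672, 0.945, 4.19 and 1.03 in siCtrl, and passed 1 TPM in all groups only in line 4. Col11a2, a cartilage chain, averaged 1.19 ± 0.149 TPM in siLmod1, 0.767 ± 0.165 in siSirt1 and 0.855 ± 0.221 in siCtrl, with the narrowest range over the siCtrl lines of the 26 expressed chains. Col2a1 and Col11a1, both of cartilage fibrils, were not expressed.

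Type IV collagen was represented by its near-ubiquitous pair. Col4a1 (chromosome 8, 11198423 to 11312826, minus strand) measured 50.8, 56.6, 44.9, 5.57 and 111 TPM in siLmod1, 58.6, 52.8, 126, 31.5 and 401 in siSirt1 and 109, 75.7, 135, 9.14 and 247 in siCtrl. Col4a2 (chromosome 8, 11312805 to 11449287, plus strand) measured 71.5, 56.1, 54.3, 8.52 and 124 TPM in siLmod1, 49, 37.4, 96.4, 35.8 and 375 in siSirt1 and 124, 65.4, 122, 13.7 and 227 in siCtrl. Both were highest in line 7 and lowest in line 4 in every group, and the 3 groups overlapped. The ratio of Col4a2 to Col4a1 in TPM averaged 1.25 ± 0.217 in siLmod1, 0.876 ± 0.169 in siSirt1 and 1.06 ± 0.264 in siCtrl (SD, n = 5 each), while the CPM of Col4a1 and Col4a2 differed over the siCtrl lines by 25.3-fold and 15.5-fold. Col4a5, which joins the networks of kidney and smooth muscle, reached 1 TPM in lines 1 and 3 only, with 4.11 and 2.73 TPM in siCtrl. Col4a3, Col4a4 and Col4a6 were not expressed.

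The Col4a1 and Col4a2 genes are read in opposite directions from one start region, and the annotated genes overlap by 22 bases (chr8:11312805-11312826, plus strand, RefSeq sequence of GRCm38.p6, shown because both genes begin within it):
Col4a2 and Col4a1 shared start: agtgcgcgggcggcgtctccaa
Libraries were made with a kit that does not keep the strand, so reads in these bases cannot be told apart, but they are 0.332% of the exonic bases of Col4a2 and 0.295% of those of Col4a1.

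Among the other classes, type XVIII, type VI and type XXV chains led. Col18a1 (chromosome 10, 77052178 to 77166548, minus strand) encodes a basement membrane collagen with sugar chains that carries endostatin at its end. It measured 36.7, 50.4, 50.6, 1.58 and 30.7 TPM in siLmod1, 37.4, 53.1, 54.9, 7.902 and 93.4 in siSirt1 and 91.1, 78.7, 119.5, 2.11 and 87.4 in siCtrl, and was lowest in line 4. Col25a1 (chromosome 3, 130131501 to 130599877, plus strand) encodes a transmembrane collagen that mouse muscle needs for motor axons to grow in. It measured 38.1, 36.3, 63.5, 12.1 and 69.8 TPM in siLmod1, 35.95, 25.1, 68.7, 9.36 and 38.3 in siSirt1 and 21.5, 27.6, 44.1, 5.34 and 49.8 in siCtrl, so that each siLmod1 library was above the siCtrl library of its line.

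Col12a1 (chromosome 9, 79598991 to 79718831, minus strand) encodes a fibril-associated collagen (FACIT, a class that coats fibrils) of tendon and muscle connective tissue, and its human gene is mutated in a myopathic form of Ehlers-Danlos syndrome. It measured 15.99, 13.9, 17.6, 3.35 and 26.9 TPM in siLmod1, 55.2, 19.2, 56.8, 22.7 and 58.6 in siSirt1 and 28.1, 15.5, 42.03, 8.32 and 39.8 in siCtrl, with siLmod1 lowest and siSirt1 highest in every line. Col16a1 (chromosome 4, 130047840 to 130099283, plus strand), another FACIT, measured 0.363, 0.444, 0.572, 10.9 and 0.403 TPM in siLmod1, 1.33, 1.39, 1.17, 13.4 and 3.04 in siSirt1 and 0.828, 0.759, 2.48, 12.6 and 1.21 in siCtrl, and its level in line 4 was above that of every other line in each group. Col8a1 (chromosome 16, 57624258 to 57754737, minus strand), a short-chain network collagen of vessel walls and the cornea, measured 6.42, 3.601, 7.902, 6.77 and 3.797 TPM in siLmod1, 10.4, 2.95, 23.04, 60.4 and 12.9 in siSirt1 and 14.1, 4.74, 21.7, 32.2 and 4.86 in siCtrl. Each siLmod1 library was below the siCtrl library of its line, and the groups overlapped.

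Type VI chains were unequal. Col6a1 averaged 46.2 ± 32.3 TPM in siLmod1, 72.9 ± 71.8 in siSirt1 and 49.96 ± 27.9 in siCtrl, and Col6a2 8.33 ± 7.19, 13.3 ± 18.6 and 8.11 ± 5.02 TPM. Col6a3, the third chain of the type VI trimer, averaged 1.704 ± 1.43, 1.06 ± 0.922 and 2.39 ± 2.01 TPM in the same order. In line 4, Col6a1 was at 0.826, 10.7 and 0.367 TPM in siLmod1, siSirt1 and siCtrl, and Col6a3 at 0, 0.341 and 0.0504 TPM. On the TPM scale, 1 of the 3 expressed type VI chains was abundant and 2 were scarcer. Col6a4, Col6a5 and Col6a6 had at most 0.307 TPM in any library.

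Further chains were moderate or low. Col19a1, a FACIT that mouse oesophageal muscle needs for its normal development, averaged 8.38 ± 6.67 TPM in siLmod1, 16.5 ± 14.1 in siSirt1 and 7.72 ± 5.88 in siCtrl. Col26a1, first described in testis and ovary, averaged 4.02 ± 3.73, 5.83 ± 6.13 and 5.22 ± 5.91 TPM, and Col7a1, of the anchoring fibrils of skin, 3.19 ± 2.83, 3.08 ± 1.89 and 2.705 ± 1.18 TPM. Col20a1, a FACIT, averaged 1.36 ± 0.737, 1.73 ± 0.825 and 0.966 ± 0.493 TPM, and it shares 79 exonic bases on the same strand with BX649560.1, which had 5354 reads against its own 748. Col10a1, of hypertrophic cartilage, and Col17a1, of the hemidesmosome, were high in line 4. Col10a1 had 13.3, 9.23 and 12.2 TPM in the siLmod1, siSirt1 and siCtrl libraries of line 4, and at most 0.380 TPM elsewhere. It shares 18 exonic bases, 0.575% of its own, with the opposite-strand gene Nt5dc1, which had 5911 reads against 1062 of Col10a1. Col17a1 had 9.47, 6.63 and 9.75 TPM in line 4 and at most 1.02 TPM elsewhere. None of Col8a2, Col9a1, Col9a2, Col9a3, Col13a1, Col14a1, Col15a1, Col22a1, Col23a1 and Col28a1 was expressed, and their highest value in any library was 3.08 TPM, of Col8a2 in siSirt1 line 7.

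In siLmod1 against siCtrl, the question was how loss of Lmod1 changed early transcription in differentiating myoblasts. With the line number as a block in the model, which compares the libraries within a line, 13 chains fell and 1 rose (edgeR quasi-likelihood test, Benjamini-Hochberg adjusted p under 0.05, over 15022 genes). Of all genes tested, 16.5% fell and 12.9% rose in this fit. Of the 44 chains, 27 had reads enough to be tested. The 13 were 7 of the 9 tested fibrillar chains, 2 of the 4 tested type IV chains and 4 of the 14 tested others. The median log2 fold change of the 27 was -0.55, against -0.01 for all genes tested. With the group alone in the model, no chain passed in either direction, 3 of 27 had an unadjusted p under 0.05, and 0.113% of all genes were called lower and 0.0% higher. DESeq2 without the block called 0 chains, where it called 0.987% of all genes lower and 0.613% higher.

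The fibrillar chains that fell with the block were Col3a1, Col5a3, Col27a1, Col1a2, Col5a2, Col1a1 and Col5a1. Col3a1 had a log2 fold change of -0.95 ± 0.10 SE (adjusted p = 0.000134), and Col5a3 of -1.36 ± 0.15 SE (adjusted p = 0.000215). Both were lower in 5 of 5 lines. Col27a1 changed by -0.96 ± 0.16 SE (adjusted p = 0.00151), Col1a2 by -0.69 ± 0.12 SE (adjusted p = 0.00192) and Col5a2 by -0.70 ± 0.12 SE (adjusted p = 0.00231), each lower in 5 of 5 lines. For Col5a1, with -0.55 ± 0.17 SE (adjusted p = 0.0347), and for Col1a1, with -2.48 ± 0.68 SE (adjusted p = 0.02), 4 of 5 lines were lower, and the Col1a1 value rests on few reads. The tested fibrillar chains Col24a1 (-0.10) and Col11a2 (0.45) did not pass.

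Both chains of the common basement membrane trimer fell with the block. Col4a1 had a log2 fold change of -1.05 ± 0.12 SE (adjusted p = 0.000267) and Col4a2 of -0.79 ± 0.10 SE (adjusted p = 0.000348), and Col18a1, of the same membrane, of -1.14 ± 0.12 SE (adjusted p = 0.000131). All were lower in 5 of 5 lines. Col4a5, with -1.02 ± 0.36 SE and adjusted p = 0.0568, did not pass. Of the other classes, Col12a1 fell by 0.85 ± 0.14 SE (adjusted p = 0.00153) on the log2 scale, Col8a1 by 1.23 ± 0.24 SE (adjusted p = 0.00376) and Col16a1 by 1.09 ± 0.24 SE (adjusted p = 0.00756), each lower in 5 of 5 lines. The transmembrane chain Col25a1 rose by 0.63 ± 0.09 SE (adjusted p = 0.000914), and was higher in 5 of 5 lines. The type VI chains Col6a1, Col6a2 and Col6a3 had values of -0.18, -0.13 and -0.50 and did not pass.

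Without the block the group-only adjusted p of the 13 lower chains lay between 0.41 and 0.965, and that of Col25a1 was 0.872. With all 15 libraries in 1 blocked fit, which pools the spread over the 3 groups, 4 chains fell, Col3a1, Col5a3, Col12a1 and Col27a1, and Col25a1 rose, where 5.26% of all genes fell and 3.82% rose. DESeq2 with the block called 12 of the 13, without Col5a1, and Col25a1, with 16.7% of all genes lower and 12.1% higher.

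**Figure D3:**
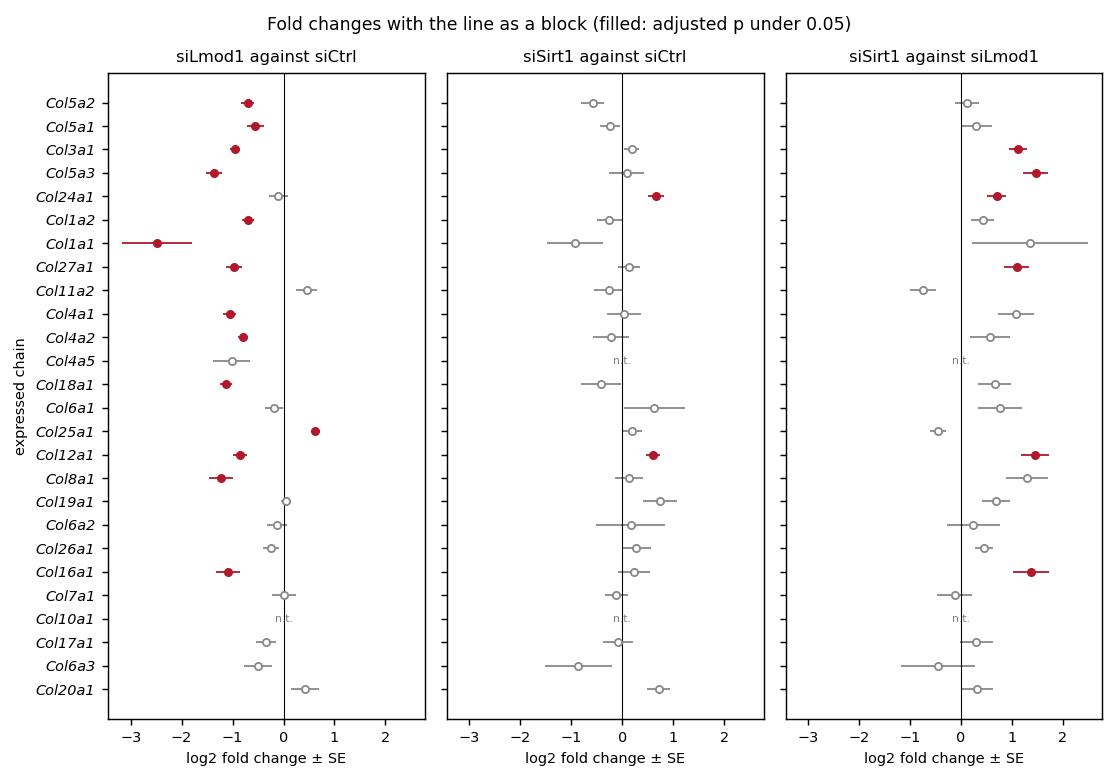
Log2 fold change with its SE (x axis) of the expressed chains (y axis) with the line as a block, for siLmod1 against siCtrl, siSirt1 against siCtrl and siSirt1 against siLmod1, with n.t. for chains with too few reads to be tested. Filled points have an adjusted p under 0.05: 13 below and 1 above 0 in the first panel, 2 above 0 in the second and 6 above 0 in the third.

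**Figure D4:**
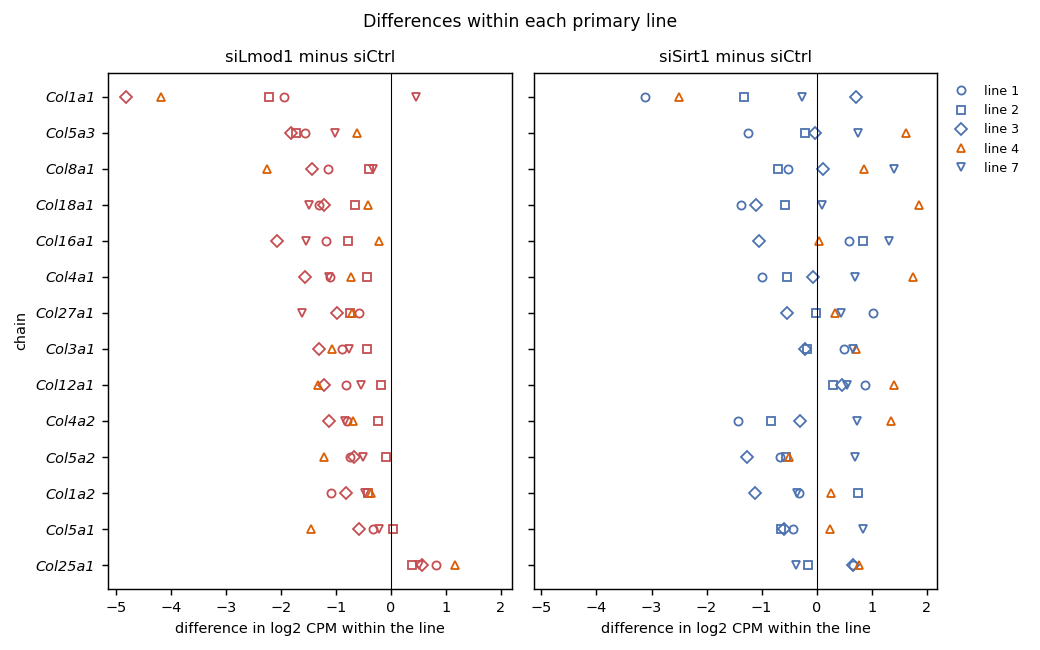
Difference in log2 CPM within each primary line (x axis; siLmod1 minus siCtrl, left, and siSirt1 minus siCtrl, right) for the 14 chains called with the block in siLmod1 against siCtrl (y axis), 1 symbol per line. On the left, 11 of the 13 lower chains have all 5 lines below 0 and Col25a1 has all 5 above 0, while on the right the lines of most chains lie on both sides of 0.

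In siSirt1 against siCtrl, 2 chains rose and 0 fell with the block, Col12a1 by 0.60 ± 0.14 SE (adjusted p = 0.0448) and Col24a1 by 0.66 ± 0.15 SE (adjusted p = 0.0412). In this fit 2.72% of all genes rose and 4.35% fell. Each of the 2 was higher in 5 of 5 lines, and neither passed once any 1 line was left out, when 0 chains rose. Calls fell over all genes too, from 406 of 14912 higher with all lines to 72 to 166 with 1 line left out. With the group alone, 0 of 27 tested chains passed, 0 had an unadjusted p under 0.05, and 0.0134% of all genes were called higher and 0.114% lower. DESeq2 without the block called 0 chains, with 0.751% of all genes higher and 1.44% lower. In the edgeR fit of the group alone, the adjusted p of Col12a1 and Col24a1 was 0.749 and 0.885. DESeq2 with the block called the same 2 chains higher and Col5a2 lower, with 5.44% of all genes higher and 8.71% lower. With all 15 libraries in 1 blocked fit Col24a1 alone passed, higher, where 7.53% of all genes were higher and 8.56% lower.

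The chains that led the levels had siSirt1 values on both sides of siCtrl. Within lines, the differences in log2 CPM of Col3a1 ran from -0.22 to 0.71, those of Col4a1 from -0.99 to 1.74, those of Col18a1 from -1.37 to 1.86 and those of Col6a1 from -0.65 to 4.77. Line 4 gave the positive end of each of these ranges. Col6a1 was at 10.7 TPM in siSirt1 and 0.367 TPM in siCtrl of line 4, and at 196 and 65.7 TPM in line 7. The siSirt1 library of line 7 was the one that stood highest on the second principal component. In the blocked fit the SE of Col4a1 was 0.34 here and 0.12 in siLmod1 against siCtrl. Col20a1, at 0.72 ± 0.23 SE and adjusted p = 0.0991, was higher in 5 of 5 lines and did not pass.

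In siSirt1 against siLmod1, 6 chains rose and 0 fell with the block, while 7.43% of all genes rose and 8.43% fell. They were the fibrillar chains Col3a1 with 1.12 ± 0.18 SE (adjusted p = 0.00757), Col5a3 with 1.47 ± 0.25 SE (adjusted p = 0.00863), Col27a1 with 1.09 ± 0.25 SE (adjusted p = 0.0232) and Col24a1 with 0.70 ± 0.18 SE (adjusted p = 0.0371). The FACIT chains Col12a1, with 1.45 ± 0.27 SE (adjusted p = 0.0124), and Col16a1, with 1.37 ± 0.35 SE (adjusted p = 0.0342), rose as well. All 6 were higher with siSirt1 in 5 of 5 lines. The siLmod1 libraries enter both this comparison and siLmod1 against siCtrl. Col4a1 had 1.08 ± 0.35 SE and adjusted p = 0.0753, and Col8a1 1.30 ± 0.41 SE and adjusted p = 0.0681. Col25a1 had -0.45 ± 0.15 SE with adjusted p = 0.0779, and none of the 3 passed.

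With the group alone 0 of 26 tested chains passed in this comparison and 4 had an unadjusted p under 0.05, where 0.68% of all genes were called higher and 0.847% lower, and DESeq2 without the block called 2 chains higher, Col8a1 and Col8a2, with 2.79% of all genes higher and 2.86% lower. Left out of the blocked fit 1 at a time, the lines changed the count to 3 without line 1, 6 without line 2 and 4 without line 3, 4 or 7. Col3a1, Col5a3 and Col12a1 passed in each of these. Of all genes, 1115 of 14998 rose with all lines. Without line 1, 2, 3, 4 and 7 in turn, 473, 822, 429, 639 and 783 rose. DESeq2 with the block called all 6 together with Col19a1 and Col8a2 higher and Col25a1 lower, with 10.8% of all genes higher and 10.5% lower. With all 15 libraries in 1 blocked fit the 6 passed with Col4a1 and Col8a1, and Col11a2 was lower, where 13.5% of all genes were higher and 13.3% lower. Col11a2, lower with siSirt1 in 5 of 5 lines at -0.75 ± 0.25 SE, did not pass (adjusted p = 0.0808).

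**Figure D5:**
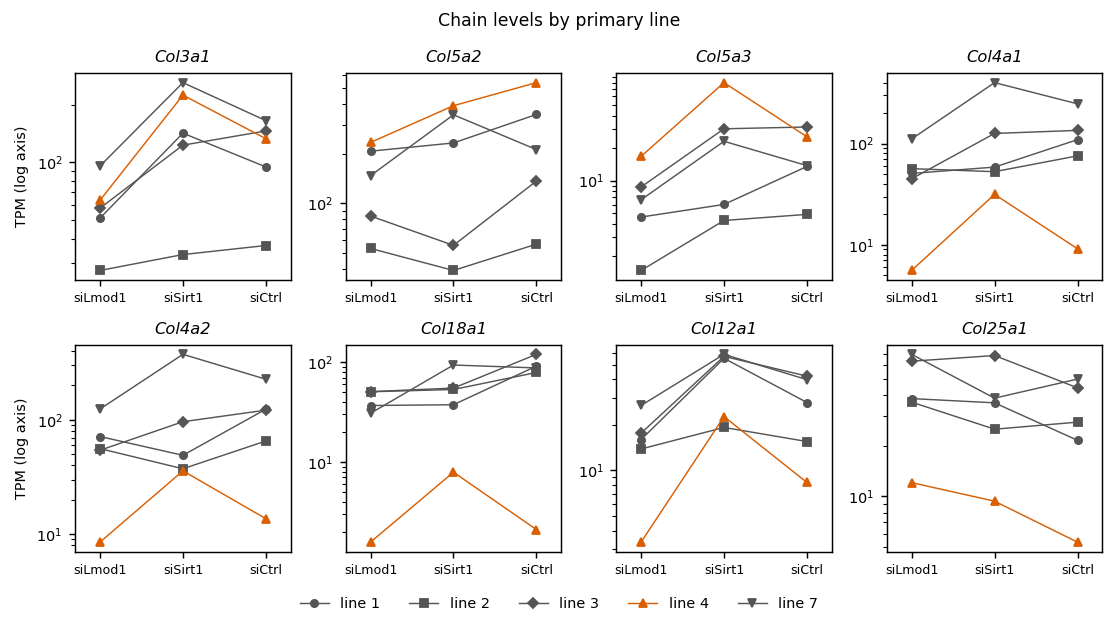
TPM (y axis, log scale, own range in each panel) of 8 chains in siLmod1, siSirt1 and siCtrl (x axis), with 1 line joining the 3 libraries of a primary line and line 4 in orange. Col3a1, Col5a3 and Col12a1 are lowest with siLmod1 in each primary line, Col25a1 is higher with siLmod1 than with siCtrl in each, and line 4 is the lowest line in each group for Col4a1, Col4a2, Col18a1 and Col25a1.

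The genes that make, trim and bind collagen were read from 4 lists of known members. Of all genes tested in siLmod1 against siCtrl with the block, 16.5% fell and 12.9% rose. Of 21 genes of collagen biosynthesis, 20 were tested, and with the block 4 fell and 2 rose in siLmod1 against siCtrl, with a median of -0.13. Those counts are near the shares of all genes. Creb3l1, a transcription factor of collagen-secreting cells, fell by 1.11 ± 0.09 SE, and Serpinh1, the collagen chaperone HSP47, by 0.31 ± 0.07 SE. Mia2 and Mia3, which help to export procollagen from the endoplasmic reticulum, rose by 0.36 ± 0.05 SE and 0.21 ± 0.05 SE. Of 8 genes of propeptide processing, 5 were tested and 3 fell: Adamts2, which removes the amino propeptide, by 1.49 ± 0.22 SE, Bmp1, which removes the carboxy propeptide, by 0.61 ± 0.10 SE, and its enhancer Pcolce by 0.44 ± 0.07 SE. Of 10 collagen receptor genes, 7 were tested and 3 fell: Itga1 at -1.33 ± 0.27 SE, Ddr1 at -0.27 ± 0.05 SE and Itgb1 at -0.26 ± 0.06 SE.

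Of 14 partners of type IV collagen in the basement membrane, 11 were tested and 8 fell in siLmod1 against siCtrl with the block, where 16.5% of all genes fell, with a median of -0.44. They included the nidogen Nid2 at -0.91 ± 0.10 SE, and the laminin chains Lamb1 at -0.91 ± 0.12 SE and Lamc1 at -0.56 ± 0.08 SE. In siSirt1 against siCtrl, where 4.35% of all genes fell and 2.72% rose with the block, 4 of the 11 fell, among them Lamb2 at -0.64 ± 0.10 SE, Nid2 at -0.52 ± 0.11 SE and the perlecan gene Hspg2 at -0.50 ± 0.08 SE. The biosynthesis list had 2 lower genes there, the lysyl hydroxylase Plod2 at -0.85 ± 0.12 SE and the prolyl 3-hydroxylase P3h1 at -0.41 ± 0.09 SE. The receptor list had 1, Itgb1 at -0.51 ± 0.10 SE, and the processing list had 0. In siSirt1 against siLmod1, Creb3l1 at 1.33 ± 0.31 SE, Adamts2 at 1.67 ± 0.41 SE, Bmp1 at 0.65 ± 0.17 SE and the receptor Mrc2 at 0.69 ± 0.18 SE rose, while Plod2 and P3h1 fell. Of the membrane partners 4 rose and 2 fell there, and of all genes 7.43% rose and 8.43% fell. None of the genes of these 4 lists passed with the group alone in any of the 3 comparisons.

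Promoter sequences were at hand for 35 of the 44 chains (RefSeq, GRCm38.p6), here the 250 bases before the annotated start. They are shown for 3 of the chains that fell with siLmod1 in the blocked fit, as examples with different motifs. Each is given on the strand of its gene, and capitals mark the TATA box letters (TATAAA), the CCAAT box and the GC box (GGGCGG), with both strands read, so that a GC box of the other strand stands as CCGCCC.
Col3a1, chr1:45311288-45311537, plus strand: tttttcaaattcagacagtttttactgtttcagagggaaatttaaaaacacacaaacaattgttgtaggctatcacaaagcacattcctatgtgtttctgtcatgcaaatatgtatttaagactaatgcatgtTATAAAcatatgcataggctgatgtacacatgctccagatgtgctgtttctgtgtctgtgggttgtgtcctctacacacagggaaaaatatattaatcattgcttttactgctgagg
Col5a3, chr9:20815068-20815317, minus strand: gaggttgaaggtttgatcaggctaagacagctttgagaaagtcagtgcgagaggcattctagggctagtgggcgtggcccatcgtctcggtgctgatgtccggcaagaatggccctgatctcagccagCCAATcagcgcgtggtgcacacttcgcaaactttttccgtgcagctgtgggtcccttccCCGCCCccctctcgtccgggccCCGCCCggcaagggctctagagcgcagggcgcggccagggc
Col8a1, chr16:57754738-57754987, minus strand: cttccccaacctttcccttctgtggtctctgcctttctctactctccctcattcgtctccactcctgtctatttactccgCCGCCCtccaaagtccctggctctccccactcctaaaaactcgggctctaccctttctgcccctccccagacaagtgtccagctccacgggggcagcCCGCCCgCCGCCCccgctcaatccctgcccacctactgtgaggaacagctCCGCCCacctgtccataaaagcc
The Col3a1 stretch holds TATAAA, at -117 from the start, and 35.2% G and C. That of Col5a3 holds CCAAT at -122 and 2 copies of GGGCGG with 62.8% G and C, and that of Col8a1 holds 4 copies of GGGCGG with 60.8%. Over the 35 chains, 12 held the letters CCAAT, 21 GGGCGG and 5 TATAAA anywhere in the window on either strand, which is 34.3%, 60.0% and 14.3%. Of the 27025 genes in the table, 34.5%, 32.9% and 13.0% held them, and the median share of G and C was 59.6% over the chains and 52.0% over all genes. Among the 22 expressed chains with a sequence 13 held GGGCGG, and among the 13 not expressed 8 did. These matches describe the letters of the window and were not tested.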

How the data were processed

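RNA was extracted from primary myoblasts and polyadenylated RNA was made into libraries with a kit that does not keep the strand and read at 150 bases, per the labels. The authors deposited raw counts per Ensembl gene and TPM per gene, in 3 tables of each kind with 1 pair of groups per table, and the tables of normalised counts were not used here. Build mm10 and DESeq2 are named in the submitters' processing notes, and the aligner, counter, annotation release and gene lengths were not given in the sources used here. Library columns repeated between tables were identical. Symbols came from GENCODE M21 by Ensembl identifier (99.3% matched, and identifiers without a symbol held 0.0320% of counts), and promoters from RefSeq by symbol.

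The counts of each pair of groups were filtered with filterByExpr, scaled by TMM and tested with the quasi-likelihood F test of edgeR 4.0.16 in R 4.3.3, with Benjamini-Hochberg adjustment over all genes tested and a call at an adjusted p under 0.05. The main model held the group alone. Log2 fold changes are the first group named minus the second, and the SE comes from the F statistic. CPM on the log2 scale used 0.5 added to each count. Alternatives were the line number as a block, DESeq2 1.42.0, other size factors, no filter, all 15 libraries in 1 fit, and each library or line left out. The scripts were tested on simulated data. The members and lists were chosen with earlier results of these data known.

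The design text states 5 primary lines and the labels number the libraries of each group alike, so a number was read as 1 line, and the pairing was checked on the data. After group means were removed, libraries of the same line correlated at 0.312 to 0.919 over 13219 genes (median 0.804, 15 pairs) and those of different lines at -0.564 to 0.306 (median -0.148, 60 pairs). The pairing was weakest for siSirt1 line 1, at 0.312 with siCtrl line 1 and 0.306 with siCtrl line 3. P-values of the blocked fit set the difference within lines against the spread of that difference over the 5 lines. Those of the group-only fit set the difference between the groups against the spread between the lines within both groups. Each group had 1 library per line.

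Every expressed chain is described, and library values are given for chains called in any comparison with or without the block and for the 5 chains with the highest mean TPM. The 4 lists held 21 genes of collagen biosynthesis, 8 of propeptide processing, 10 collagen receptors and 14 basement membrane partners, with up to 4 of the smallest p named. A gene of these lists is not reported here by name. Marker lists were myoblast, fibroblast, smooth muscle and pericyte, endothelial, Schwann and macrophage. The Schwann list summed to 4.13 to 6.44 TPM in siLmod1, 5.38 to 20.8 in siSirt1 and 4.29 to 7.12 in siCtrl, and the macrophage list to 4.21 to 7.85, 3.74 to 9.16 and 4.08 to 5.74 TPM. The endothelial list summed to 0.754 to 58.2 TPM in siLmod1, 0.551 to 30.2 in siSirt1 and 0.833 to 62.5 in siCtrl.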

Additional observations from a re-analysis of the deposited data

Results flagged for a closer look

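In 15 of 78 sets of 5 library values of log2 CPM (0.5 added to each count), taken over the 26 expressed chains and 3 groups, the highest or lowest library stood apart from its neighbour by more than 0.71 of the whole range, the limit of Dixon's test for 5 values. Chance flags about 1 in 20 sets, and chains of 1 library are not independent. Line 4 was the library that stood apart in 13 of the 15, and of these the Col17a1 and Col27a1 sets belong to chains that did not reach the threshold of expression without line 4. The gaps below are shares of the range of log2 CPM, and the TPM of the library that stood apart is given only as its level.

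Line 4 stood below the other lines for Col18a1 in siLmod1 (level 1.58 TPM, gap 0.852 of the log2 CPM range) and siCtrl (2.11 TPM, 0.906). The type VI chains showed the same side: Col6a1 in siLmod1 (0.826 TPM, 0.798) and siCtrl (0.367 TPM, 0.984), Col6a2 in siLmod1 (0.0383 TPM, 0.773) and siCtrl (0.0483 TPM, 0.893), and Col6a3 in siLmod1 (0 TPM, 0.75).

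Line 4 stood above the other lines for Col5a1 in siCtrl (326 TPM, 0.87), Col16a1 in siLmod1 (10.9 TPM, 0.88), Col17a1 in siSirt1 (6.63 TPM, 0.859) and siCtrl (9.75 TPM, 0.737), and Col27a1 in siLmod1 (2.58 TPM, 0.835) and siCtrl (4.19 TPM, 0.741). Line 3 stood above the others for Col24a1 in siLmod1 (6.27 TPM, 0.754) and siSirt1 (14.1 TPM, 0.805). Why these lines differ was not tested.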

How the results depend on the processing

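The counts of called chains depended on the line as a replicate block and on the tool. In siLmod1 against siCtrl, 0 chains were lower and 0 higher with the group alone, 13 and 1 with the block, 12 and 1 with DESeq2 and the block, and 4 and 1 with all 15 libraries in 1 blocked fit. With 1 line left out of the blocked fit, 11 to 15 were lower and 1 to 2 higher. Col1a1 did not pass without line 1, 2 or 3, and Col5a1 did not pass without line 1 or 3. The rest of the 13 lower chains passed whichever line was left out. Of the 14951 to 15175 genes tested in those fits, 1659 to 2340 were lower and 1174 to 1924 higher. The blocked fit without the count filter gave 16 and 1, where 2889 of 30184 genes were lower and 1914 higher. In siSirt1 against siCtrl, 0 were lower and 0 higher with the group alone, 0 and 2 with the block, 1 and 2 with DESeq2 and the block, and 0 and 1 with all 15 libraries in 1 blocked fit. Without the count filter the blocked fit gave 1 lower, Col5a2, and 3 higher, Col19a1, Col24a1 and Col12a1, and with 1 line left out 0 to 1 lower and 0 to 0 higher. In siSirt1 against siLmod1, 0 were higher with the group alone, 2 with DESeq2, 6 with the block, 8 with DESeq2 and the block, 8 with all 15 libraries in 1 blocked fit and 11 in the blocked fit without the filter, and 3 to 6 with 1 line left out. The count of lower chains there was 0 with the group alone and with the block, and 1 in each of DESeq2 with the block, all 15 libraries in 1 blocked fit and the blocked fit without the filter. Over all genes, the blocked fits with 1 line left out called 260 to 414 lower and 72 to 166 higher in siSirt1 against siCtrl. In siSirt1 against siLmod1 they called 429 to 822 higher. Without the filter the blocked fit called 1226 of 29998 genes lower and 583 higher in siSirt1 against siCtrl. In siSirt1 against siLmod1 it called 1552 of 30093 lower and 1381 higher. Why the fits differ was not tested. Leaving any 1 library out of the group-only fits called 0 chains. Other size factors changed none of these counts.

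Of 638 values of the 22 named chain fold changes under alternatives, 449 kept their direction and side of the threshold, 183, all with the block, passed it, and 6 turned round in the group-only fit without 1 library. Leaving out 1 library at a time, siLmod1 against siCtrl ran for Col16a1 from -3.13 without siLmod1 line 4 to 0.99 without siCtrl line 4, for Col27a1 from -2.02 to 0.0556 with the same libraries left out, and for Col1a2 from -1.46 without siLmod1 line 2 to 0.0297 without siCtrl line 2. Col24a1 ran from -0.49 without siSirt1 line 3 to 1.73 without siCtrl line 3 in siSirt1 against siCtrl, and from -0.19 without siSirt1 line 3 to 1.66 without siLmod1 line 3 in siSirt1 against siLmod1. In the same comparison Col16a1 ran from -0.72 without siSirt1 line 4 to 3.10 without siLmod1 line 4. The number of expressed chains was 28 at a threshold of 0.5 TPM, 21 at 2 TPM and 23 by 1 TPM in at least 5 of the 15 libraries, and 23 to 26 with 1 line left out (23 without line 4). Depth limits the low chains: Col1a1 had at most 24 reads in any siLmod1 library.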
